A study of Mus musculus with 2 samples.

Results

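Aldh3a1 and 5 other aldehyde dehydrogenases, Aldh3a2, Aldh3b2, Aldh1a3, Aldh2 and Aldh9a1, were followed cell type by cell type in back skin of a control mouse and of a mouse with induced miR-205. The 6 genes are 6 of the 31053 features counted, and 6 of 21 aldehyde dehydrogenase genes looked up by symbol. They were chosen by their measured values in these same libraries, in particular a higher Aldh3a1 level in hair follicle stem cells after induction, so the differences between the libraries are given below as a description and no test was run on them.

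Aldehyde dehydrogenases oxidize aldehydes to carboxylic acids with NAD+ or NADP+ as the acceptor. They remove aldehydes that come from lipid peroxidation, ethanol, amino acids and long-chain lipids, and some members make retinoic acid from retinaldehyde. Skin is rich in substrates for them, because its barrier lipids, its sebum and its oxidized membrane lipids all yield reactive aldehydes. ALDH3A1 is abundant in the cornea, where it protects against ultraviolet light and lipid peroxidation products, and its gene is a known target of the aryl hydrocarbon receptor.

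The study induced miR-205, a microRNA of skin epithelium, to ask how it acts on hair follicle stem cells (HF-SCs) and hair germ (HG) progenitors around the onset of hair growth. Both mice were C57BL/6 by the labels, carried a K14-H2BGFP allele and were taken at postnatal day 53. The induced mouse was given doxycycline chow for 4 days from postnatal day 49, and the line holds a pTRE2-miR-205 transgene, first injected into FVB mice, under a Krt14-rtTA driver. The control had the same 4 days of doxycycline according to the extraction protocol, whereas its treatment label reads untreated. The driver limits induction to Krt14-expressing epithelium, and epidermal, hair follicle and dermal cells were sorted at 3:5:2 so that cluster sizes reflect the gates as well as the skin. Mature miR-205 has no poly(A) tail and is not captured by this assay, so its level is not given. There was 1 mouse and 1 library per group, and the spread between animals was not measured.

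The sequence of the induced microRNA is shown because its seed, in capitals, is what a target transcript pairs with. The mature strand lies at chr1:193507503-193507524 on the minus strand of GRCm38.p6 (RefSeq).
mmu-miR-205-5p: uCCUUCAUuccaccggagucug
The complement of the seed, ATGAAGG, was searched on the transcript strand of the longest annotated 3′ UTR of each gene (GENCODE vM1 on NCBIM37). It was absent from the annotated 3′ UTR of Aldh3a1, 193 bases long, and present once in that of Aldh3a2. Among 19915 genes with an annotated 3′ UTR, 2064 (10.4%) held it. The Aldh3a2 match is at position 1249 of 1457 in the UTR, at chr11:61058557-61058563 on the minus strand of NCBIM37, with its 7 matching bases in capitals.
Aldh3a2 3′ UTR: agtgtattgtATGAAGGaagtatcaag
The Aldh3a2 log2 ratio in HF-SC-like cells is given further on and was close to 0. A match of these letters is a description of the sequence only.

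Aldh3a1 (ENSMUSG00000019102) and Aldh3a2 (ENSMUSG00000010025) are neighbors on chromosome 11. In RefSeq on GRCm38.p6 Aldh3a1 runs from 61208510 to 61218418 and Aldh3a2 from 61223417 to 61267528, with 4998 bases between them. Aldh3b2 (ENSMUSG00000075296) lies on chromosome 19 from 3972328 to 3981665 and overlaps its paralog Aldh3b3 by 92 bases, and of 471 words of 30 bases at its 3′ end 13 (2.76%) also occur in that paralog. Its counts may therefore hold some reads of the paralog. Aldh1a3 (ENSMUSG00000015134) is on chromosome 7, Aldh2 (ENSMUSG00000029455) on chromosome 5 and Aldh9a1 (ENSMUSG00000026687) on chromosome 1.

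The filter kept 3936 control and 3628 induced cells with median depths of 12198.5 and 11752.5 unique molecular identifiers (UMIs), and 11 barcodes occurred in both libraries. Clustering gave 24 clusters, of which 16 could be named from marker genes and 8 stayed numbered, and the aldehyde dehydrogenases were withheld from the clustering. Clusters 3 and 18 were HF-SC-like, each with 5 of 6 markers raised, Cd34, Krt24, Krt15, Postn and Lhx2, and together held 357 control and 351 induced cells. Cluster 6 raised all 5 hair germ markers and had Lgr5 among its 10 leading genes, but Acta2 and Tagln, markers of smooth muscle, were there as well, so it is given by number. Cluster 1 raised all 7 markers of the upper hair follicle (upper HF) but also 6 of 7 suprabasal markers, and its leading genes included Rptn, Flg, Flg2 and Hrnr of the cornified layer beside Cst6, so it too is given by number. Levels below are in CPM, the UMIs of a gene scaled to the UMI total of its population (counts per 1000000), and log2 ratios are induced over control with 0.5 UMIs added, with exact 95% intervals that cover counting error only and treat UMIs as independent.

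In HF-SC-like cells Aldh3a1 was about 7-fold higher in the induced library. The control cells held 27 Aldh3a1 UMIs and the induced cells 196, which made levels of 7.67 CPM (5.06 to 11.2) and 56.1 CPM (48.5 to 64.5). The 2 intervals did not overlap. The ratio was 7.19, a log2 ratio of 2.85 (2.28 to 3.51), and Aldh3a1 had the 11th highest ratio among 9597 genes with at least 20 UMIs in these cells. The gene was chosen on this same contrast, so its rank is a description only. Cluster 3 alone gave 26 and 182 UMIs and a log2 ratio of 2.91 (2.33 to 3.58). Cluster 18 gave 1 UMI in 29 control cells and 14 in 58 induced cells, too few for a ratio here. Both clusters thus lay in the same direction, and cluster 3 carried most of the counts.

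The added Aldh3a1 UMIs were spread over many HF-SC-like cells. In the control library 18 of 357 cells had an Aldh3a1 UMI (5.04%, 3.02% to 7.85%), and none had more than 3. In the induced library 102 of 351 cells had at least 1 UMI (29.1%, 24.4% to 34.1%). Of these 64 had 1 UMI, 18 had 2, 7 had 3, 3 had 4 and 10 had 5 or more, with 8 in the highest cell. Depth was alike in both, at a median of 9724 control and 9915 induced UMIs per cell, and after thinning every cell to 5000 UMIs the shares were 2.70% of 333 and 20.8% of 337 cells. As a background, T cell-like, macrophage-like, melanocyte lineage-like and endothelial-like clusters were pooled. There 0 of 104 control cells held an Aldh3a1 UMI, a count that permits a share of cells with a UMI of up to 2.88%, and 2 of 181 induced cells did (1.10%, 0.134% to 3.93%), at median depths of 4729 and 5285 UMIs. These cells were shallower than HF-SC-like cells. The antigen-presenting-like cluster was not in the pool. It held 4 Aldh3a1 UMIs in 52 control and 17 in 46 induced cells, or 8.01 and 34.1 CPM. The induced HF-SC-like share lay above its background by more than counting error. The control share after thinning, 2.70%, lay within the 2.88% that its background permits. By this share the control HF-SC-like cells were thus not told apart from background, and the size of the ratio is uncertain to that extent. The background cells were not thinned, and levels in CPM were not compared with them.

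**Figure D1:**
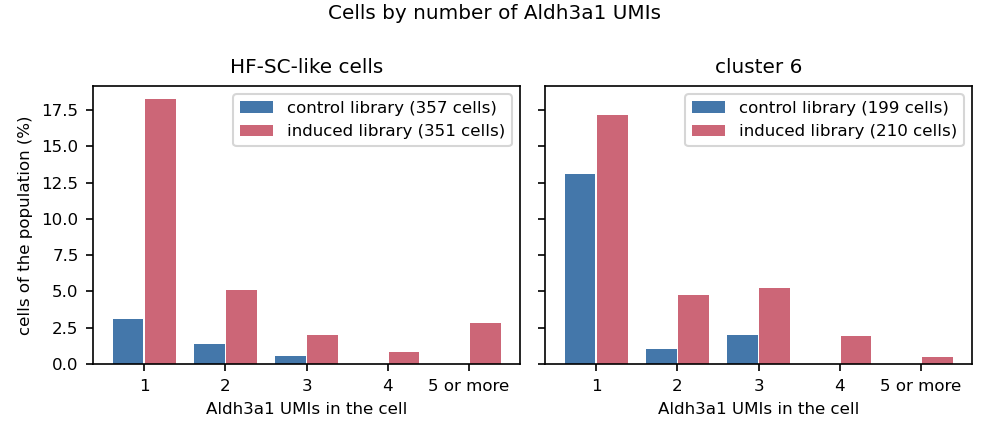
Percent of cells (y axis) by the number of Aldh3a1 UMIs in the cell (x axis, cells with 0 left out) for HF-SC-like cells and cluster 6, with blue bars for the control and red bars for the induced library. Cells with 5 or more UMIs, 10 of 351 HF-SC-like cells and 1 of 210 cells of cluster 6, were found in the induced library only.

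HF-SC-like cells of the induced library that had an Aldh3a1 UMI had the bulge genes Cd34 and Krt24 at levels no lower than those that had none. The other HF-SC markers were not compared in this way. Cd34 stood at 906 CPM in the 102 positive cells and 884 in the 249 negative cells, and Krt24 at 1128 and 785. Both were lower in the control library, where HF-SC-like cells had 624 CPM of Cd34 and 321 of Krt24 against 891 and 892 in all induced ones. The 7 upper HF markers summed to 2318 and 2849 CPM, compared with 2288 in control HF-SC-like cells and 2683 in all induced ones, and none of the 7 was at 0 in any of these sets. Krt17, at 1495 CPM in control and 1781 in all induced HF-SC-like cells, and Plet1, at 636 and 706, made up most of these library sums. Within that list Krt79 was at 47.5 CPM in positive and 12.5 in negative cells, and Defb6 at 48.4 and 22.9. Between the libraries Krt79 (log2 ratio -0.11, -0.56 to 0.34) and Defb6 (-0.27, -0.65 to 0.11) had intervals that held 0, as had Lrig1 and Klk10, whereas Cst6 (0.70, 0.48 to 0.92), Krt17 (0.25, 0.20 to 0.31) and Plet1 (0.15, 0.07 to 0.23) were higher in the induced library. The suprabasal markers summed to 1667 CPM in control and 2085 in induced HF-SC-like cells. The part of these markers in the result was not tested. With cells holding any Krt79 or Defb6 UMI left out, a choice made after seeing the data, 17 control and 155 induced Aldh3a1 UMIs remained, in 248 and 258 cells.

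Genes that respond to tissue dissociation were mostly higher in the same cells. Fos was at 3391 CPM in control and 4665 in induced HF-SC-like cells, Hspa1a at 723 and 1246, and Atf3 at 2645 and 3264. Socs3 was at 126 and 325, Hspa1b at 789 and 1093 and Egr1 at 1534 and 1602, whereas Jun was at 3156 and 2890. In induced HF-SC-like cells with an Aldh3a1 UMI Hspa1a reached 1954 CPM against 923 in those without one. Fos stood at 5849 against 4125, Jun at 3609 against 2562 and Egr1 at 2159 against 1348. Atf3 was at 4302 against 2790 and Hspa1b at 1462 against 925, whereas Socs3 was alike at 321 and 327. In induced cells of cluster 6 Hspa1a was lower with an Aldh3a1 UMI, at 212 against 281, and Fos was higher, at 3606 against 2976. The part of these genes in the result was not tested. The median mitochondrial share was 5.58% in control and 5.75% in induced HF-SC-like cells.

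In cluster 6, with the hair germ markers, Aldh3a1 was also higher in the induced library but by less. There were 42 UMIs in 199 control cells and 118 in 210 induced cells, or 18.4 CPM (13.2 to 24.8) and 43.8 CPM (36.2 to 52.4). The log2 ratio was 1.24 (0.73 to 1.80). Dissociation genes were higher here as well, with Fos at 1357 and 3170 CPM, Egr1 at 372 and 835, Atf3 at 695 and 1520 and Socs3 at 140 and 333, and their part in the result was not tested. Cells with an Aldh3a1 UMI made up 16.1% and 29.5%, and 7.85% and 16.1% after thinning. With under 5% mitochondrial UMIs only 17 and 29 UMIs were left and the log2 ratio was 0.62, so the size of this difference depended on that limit. A gate on single cells with an Lgr5 UMI and none of Cd34 or Krt24 gave 52 UMIs in 148 control cells and 107 in 150 induced cells. In a finer clustering (Louvain resolution 1.2) a hair germ-like cluster held 48 control and 96 induced cells. A separate cluster there, with Tagln, Acta2 and Lgr5 among its leading genes, held 151 and 114. Cluster 6 may therefore mix cells in unlike shares in the 2 libraries, and the part of this mix in the result was not tested.

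Across the skin of the control mouse Aldh3a1 was lower in HF-SC-like cells than in most other populations. In the control library it was highest in cluster 14, at 244 CPM (215 to 276), a numbered cluster led by Sostdc1, Klf2, Hes1, Socs3 and Fos, and its interval lay above that of the next. Cluster 8, led by Krt18 and Krt8, stood at 194 CPM, cluster 4 at 188, the sebaceous gland-like cluster 15 at 161, cluster 2 at 139 and the dermal fibroblast-like cluster 10 at 126, each overlapping its neighbor in the order. Cluster 1 had 90.7 and cycling-like cells 75.4 CPM. Below cluster 10 and again below cycling-like cells the intervals of neighbors were apart, and suprabasal-like cells of the interfollicular epidermis (IFE) came next with 19.9, then cluster 6 with 18.4 and cluster 11 with 16.1. IFE basal-like cells had 9.80, cluster 12 had 8.52 and HF-SC-like cells 7.67 CPM, and these neighbors had overlapping intervals. Dermal papilla-like and inner bulge-like cells closed the order with 2 UMIs each. The 2 sebaceous gland-like clusters differed, since cluster 20 held 0 Aldh3a1 UMIs in 21 control and 5 in 39 induced cells. HF-SC-like cells thus ranked 14th of 16 populations in the control library and 9th in the induced library, above cluster 6 and below cycling-like cells at 71.1 CPM, and the intervals of both neighbors overlapped theirs.

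**Figure D2:**
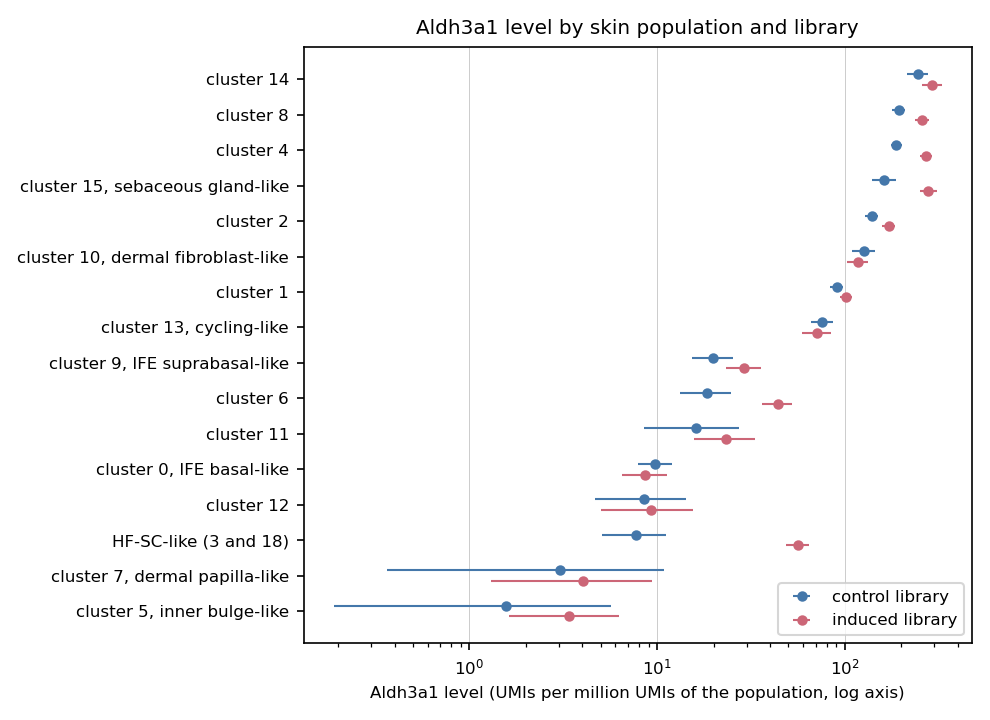
Aldh3a1 level in CPM of each population (x axis, log scale) in the control (blue) and induced (red) library, with exact 95% Poisson intervals and populations ordered by the control level. HF-SC-like cells went from 7.67 to 56.1 CPM, whereas cluster 14 had the highest value in both libraries at 244 and 292, with an interval that overlapped those of clusters 15, 4 and 8 in the induced library.

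HF-SC-like cells were 9.07% of the control and 9.68% of the induced library. They held 0.702% of all Aldh3a1 UMIs in the control library and 4.89% in the induced library. Over all kept cells Aldh3a1 had 3846 and 4008 UMIs, with a log2 ratio of 0.22 (0.15 to 0.28), in which the mix of clusters counts as well as the level inside them.

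Ratios in the other large clusters were smaller. Among 16 clusters with at least 50 cells in each library, 14 had at least 20 Aldh3a1 UMIs. Aldh3a1 was higher in the induced library in 11 of these 14 and lower in 3, and its interval lay above 0 in 9 and below 0 in none. Only clusters 3 and 6 passed 2-fold. The sebaceous gland-like cluster 15 came next with 184 and 366 UMIs, a log2 ratio of 0.79 (0.53 to 1.05). Cluster 9, the IFE suprabasal-like cells, had 0.54 (0.06 to 1.03), cluster 4 had 0.53 (0.39 to 0.67), cluster 8 had 0.41 (0.24 to 0.58) and cluster 2 had 0.31 (0.14 to 0.47). Cluster 14 had 0.26 (0.01 to 0.51) and cluster 1 had 0.16, with an interval that reached 0.00. Cluster 14 turned to -0.15 when cells were limited to under 5% mitochondrial UMIs. The log2 ratios of IFE basal-like (-0.17, -0.69 to 0.32), dermal fibroblast-like (-0.11, -0.39 to 0.17) and cycling-like cells (-0.08, -0.41 to 0.23) had intervals that held 0. Antigen-presenting-like cells, with 52 and 46 cells, had 4 and 17 Aldh3a1 UMIs (1.96, 0.47 to 4.12), and all 17 were in 4 cells. Differences between these ratios were not tested.

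The 5 genes whose levels followed Aldh3a1 most closely across 16 clusters in 2 libraries were Timp3 and Adh7 (Pearson r = 0.82 each), then Rassf10, Egr2 and Gstm1 (r = 0.81 each), out of 10801 genes with at least 200 UMIs. Adh7 encodes an alcohol dehydrogenase active on retinol and ethanol, and Gstm1 a glutathione S-transferase. These values are over 32 points that share 2 libraries, and both Adh7 and Egr2 were highest in cluster 14. Of the other members Aldh3a2 had r = 0.64 with Aldh3a1, Aldh1a3 0.30, Aldh2 0.24, Aldh3b2 0.14 and Aldh9a1 -0.06. The neighbor gene on chromosome 11 was thus the member closest to it in pattern.

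Aldh3a2, the fatty aldehyde dehydrogenase that clears long-chain lipid aldehydes and whose loss in humans causes the ichthyosis of Sjogren-Larsson syndrome, was at 8.53 CPM in control and 8.30 in induced HF-SC-like cells, from 30 and 29 UMIs. Its log2 ratio there was -0.04 (-0.83 to 0.75), and in cluster 6 it was 0.07 (-0.73 to 0.89). The intervals leave room for a difference of more than 1.5-fold either way. In the control library the gene was highest in cluster 8, at 47.4 CPM, followed by cluster 1 at 31.9. In the induced library cluster 1 at 45.6, cluster 14 at 44.7 and cluster 8 at 39.9 came first, with overlapping intervals. Cluster 1 gave a log2 ratio of 0.51 (0.26 to 0.77) from 224 and 291 UMIs. In cluster 14 it was 1.59 (0.74 to 2.57) from 15 and 44 UMIs, but 5 cells held 75.0% of the 44 and 1 of them 18. IFE basal-like cells had only 6 and 10 Aldh3a2 UMIs in 575 and 353 cells.

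Aldh3b2, whose mouse protein sits on lipid droplets and acts on long-chain aldehydes, was highest in 1 of the 2 sebaceous gland-like clusters. Cluster 20, sebaceous gland-like with all 7 markers raised, had 120 UMIs in 21 control cells and 220 in 39 induced cells, or 288 and 264 CPM. IFE suprabasal-like cells had 70.8 and 90.5 CPM (log2 ratio 0.35, 0.10 to 0.62) and cluster 1 had 45.7 and 66.3 (0.54, 0.32 to 0.75). The other sebaceous gland-like cluster, 15, had only 30.7 and 24.4 CPM, beside 23.7 and 54.1 in cluster 12 and 16.9 and 23.4 in IFE basal-like cells. Dermal papilla-like cells had no Aldh3b2 UMI in 141 control and 222 induced cells. In HF-SC-like cells it was at 6.82 and 7.15 CPM, from 24 and 25 UMIs, with a log2 ratio of 0.07 (-0.80 to 0.94). This value depended on how the cells were picked, since single cells with a Cd34 and a Krt24 UMI had 12 and 34 UMIs and a log2 ratio of 1.04. Cluster 12, Krt14-rich cells led by Oas1f and Tnfrsf19, had the largest log2 ratio of this gene, 1.18 (0.62 to 1.78), with a UMI in 33 of 137 control and 52 of 113 induced cells. Over all kept cells the log2 ratio was 0.45 (0.34 to 0.57).

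**Figure D3:**
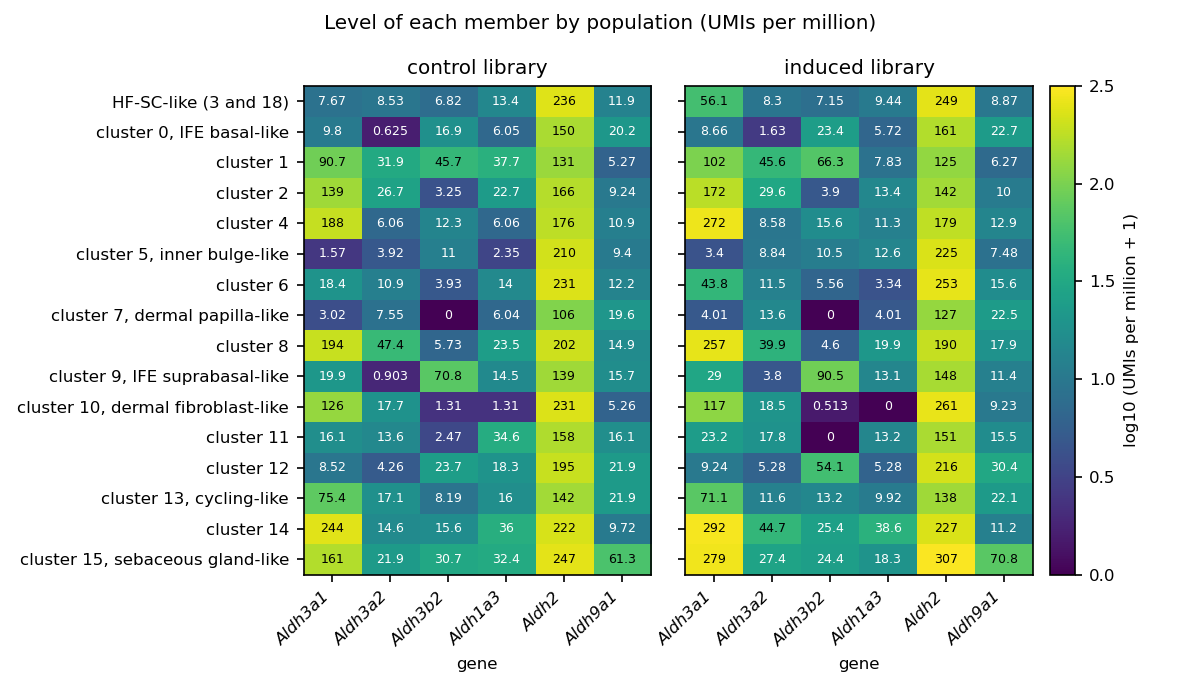
Level of the 6 members (columns) in HF-SC-like cells and 15 clusters with at least 50 cells per library (rows) for the control and induced library, printed in CPM and colored by log10 of the level plus 1. Aldh2 lay between 106 and 307 CPM throughout, whereas Aldh3b2 was at 0 in dermal papilla-like cells and reached 90.5 in IFE suprabasal-like cells.

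Aldh1a3, which makes retinoic acid from retinaldehyde, was found in few cells that each held many UMIs. Over both libraries 84 of 7564 cells (1.11%) had 5 or more Aldh1a3 UMIs, and they held 1013 of 1289 UMIs (78.6%). These cells fell in 15 of 24 clusters. Their median depth was 15081.5 UMIs against 11994 in all cells. In no cluster of at least 50 cells per library did more than 9.52% of control or 6.59% of induced cells have an Aldh1a3 UMI, whereas the share of cells with an Aldh3a1 UMI reached 84.6% and 91.5%. Intervals that treat UMIs as independent are therefore too narrow for this gene.

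Sums of Aldh1a3 were lower in the induced library in most clusters, and higher in a few. Over all kept cells there were 852 and 437 UMIs, a log2 ratio of -0.81 (-0.98 to -0.64). Of 14 clusters with enough UMIs 11 had a lower and 3 a higher value, with intervals below 0 in 6 and above 0 in 2. Cluster 1 had 265 UMIs in 25 of 469 control cells and 50 UMIs in 16 of 405 induced cells, a log2 ratio of -2.26 (-2.73 to -1.83). Shares of cells with a UMI were closer, at 5.33% and 3.95%, and 13 control cells with 5 or more UMIs held 244 of the 265. Inner bulge-like cells gave the opposite, 3 UMIs in 2 control cells and 37 UMIs in 6 of 381 induced cells, a log2 ratio of 2.22 (0.76 to 4.76), with shares of 1.18% and 1.57%. In cluster 6 it was -2.01 (-3.32 to -0.97) from 32 and 9 UMIs in 6 and 5 cells, but the gate on Lgr5 gave -0.35 from 28 and 24 UMIs. HF-SC-like cells had 47 UMIs in 9 control and 33 UMIs in 8 induced cells, with a ratio of -0.49 on the log2 scale (-1.19 to 0.17). In these cells and in clusters 4, 5, 6, 11, 12 and 15 fewer than 20 UMIs remained once the 5 highest cells of each library were left out. In cluster 1 the ratio without them was -2.53.

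**Figure D4:**
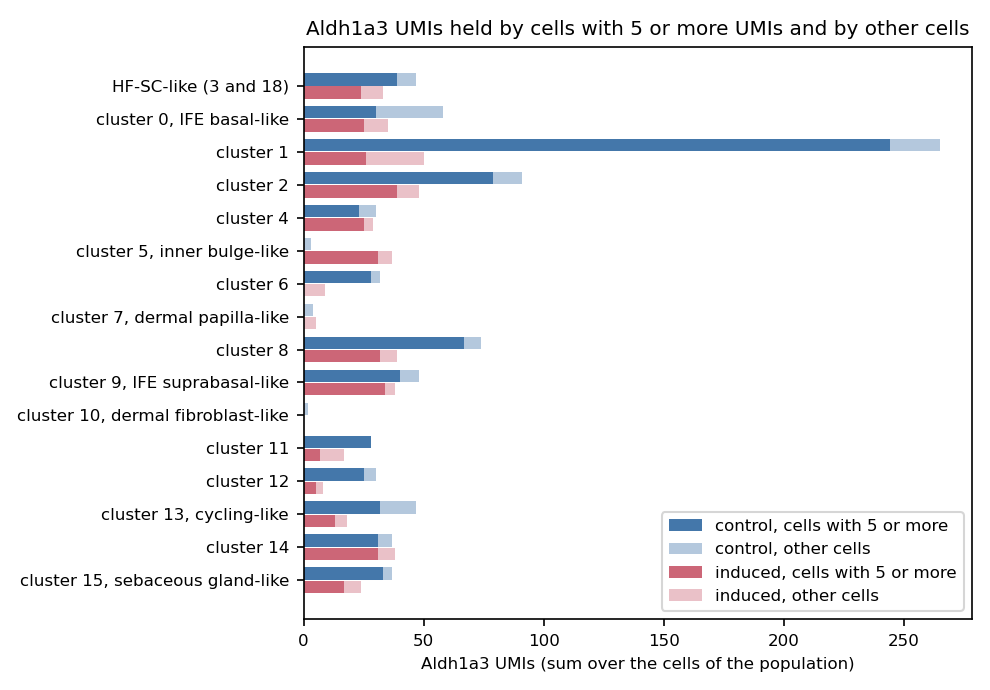
Aldh1a3 UMIs (x axis, sum over cells) in each population for the control (blue) and induced (red) library, with solid bars for UMIs in cells that held 5 or more and pale bars for UMIs in other cells. In cluster 1 244 of 265 control UMIs came from 13 such cells, and in inner bulge-like cells 31 of 37 induced UMIs came from 3.

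Aldh2, the mitochondrial enzyme that oxidizes acetaldehyde, was found in most HF-SC-like cells, at close levels in both libraries. HF-SC-like cells had 832 and 869 UMIs, or 236 and 249 CPM, and 88.2% of control and 88.3% of induced cells had a UMI. The log2 ratio of 0.07 (-0.07 to 0.21) bounded any difference there to less than 1.2-fold by counting error. Across 16 clusters no Aldh2 ratio passed 2-fold, and the ratios ran from -0.23 in cluster 2 (-0.40 to -0.06) to 0.31 in the sebaceous gland-like cluster 15 (0.09 to 0.54). Dermal fibroblast-like cells had 231 and 261 CPM, among the highest of these 16. The smaller sebaceous gland-like cluster 20 lay higher, at 332 and 386 CPM, as did the HF-SC-like cluster 18, at 317 and 308. Levels were low in several immune clusters, with 26.0 and 34.1 CPM in antigen-presenting-like cells and 2 UMIs in 29 control and 0 in 28 induced cells of the T cell-like cluster 21.

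Aldh9a1, which acts on aminoaldehydes including a step of carnitine synthesis, was a low-level gene with its peak in sebaceous cells. Among clusters with at least 50 cells per library, cluster 15 led with 61.3 CPM in the control and 70.8 in the induced library, above the next by more than counting error in both. The smaller cluster 20 had 48.1 and 81.6, a log2 ratio of 0.74 (0.03 to 1.56). HF-SC-like cells had 42 and 31 UMIs, or 11.9 and 8.87 CPM, with a log2 ratio of -0.42 (-1.15 to 0.28). Among the 16 large clusters its ratio was above 0 in 12 and below 0 in 4, and no interval excluded 0. Over all kept cells it was 0.18 (0.03 to 0.33).

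**Figure D5:**
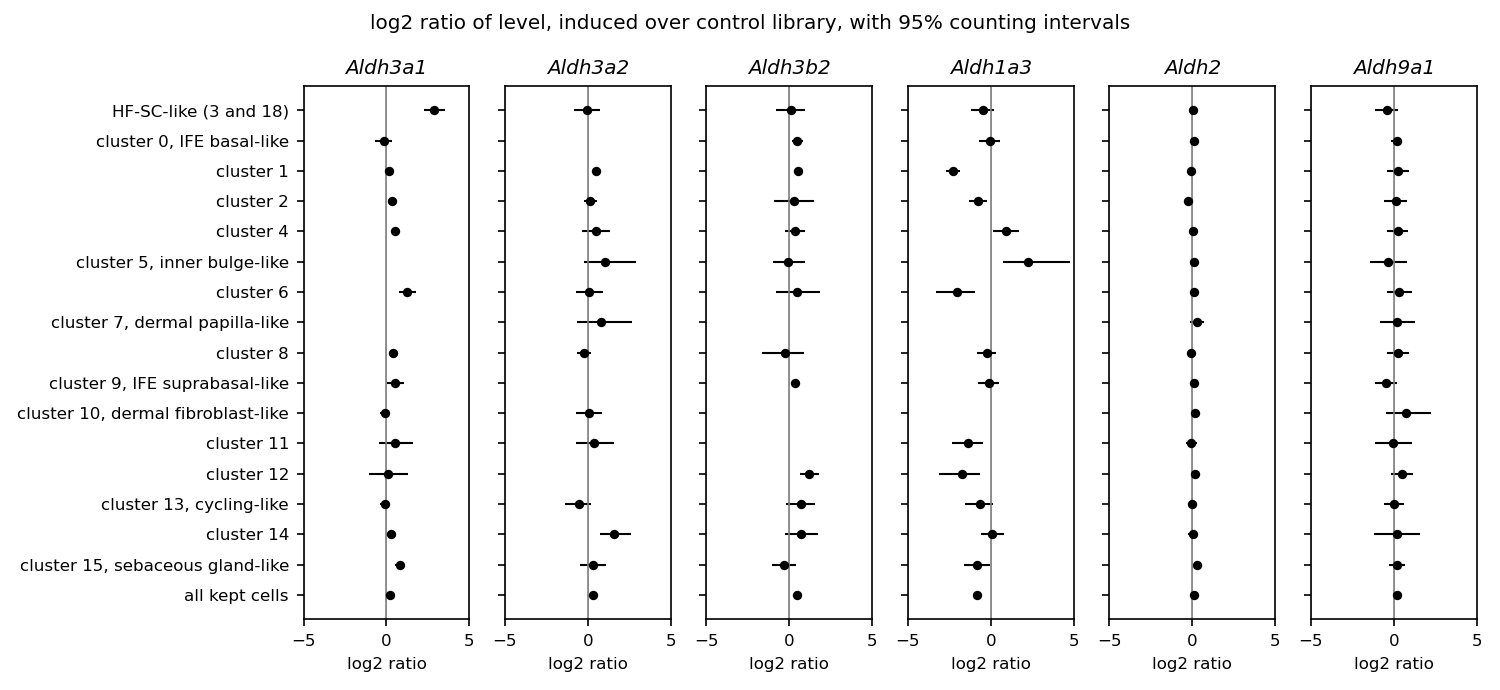
Log2 ratio of each member, induced over control library (x axis), in HF-SC-like cells, 15 clusters and all kept cells (rows), with 95% counting intervals and a line at 0. Ratios are drawn where both libraries together had at least 20 UMIs, and Aldh3a1 in HF-SC-like cells at 2.85 stands furthest from 0 among the 6 genes.

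In HF-SC-like cells 1 of the 6 members, Aldh3a1, was at least 2-fold higher and 0 were at least 2-fold lower, with a median log2 ratio of 0.01 against 0.09 over all 9597 genes. Of all those genes 3.73% were at least 2-fold higher and 2.21% at least 2-fold lower. In cluster 6 Aldh3a1 was at least 2-fold higher and Aldh1a3 at least 2-fold lower, the latter not under the Lgr5 gate, where 5.93% and 2.24% of 9099 genes were. Over all kept cells 0 of 6 passed 2-fold, where 6.39% of 14484 genes were higher and 1.09% lower. Since the members were chosen on this contrast, nothing is read from these counts.

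The other 15 aldehyde dehydrogenases were mostly low. Aldh1a2 and Aldh8a1 had 4 UMIs each in kept cells and 13 had at least 20. In HF-SC-like cells 5 of the 15 had enough UMIs, and all 5 had ratios above 0, from 0.01 to 0.93 with a median of 0.38, but none reached 2-fold. Over all 9597 genes the median was 0.09, so genes at large lay slightly above 0, and 3.73% were at least 2-fold higher. Aldh4a1, the mitochondrial enzyme of proline breakdown, was the highest of them, with 49 and 93 UMIs, levels of 13.9 and 26.6 CPM and a log2 ratio of 0.93 (0.42 to 1.46). Aldh6a1, of valine breakdown, had 0.70 (0.29 to 1.13) from 79 and 128 UMIs, Aldh18a1, of proline synthesis, 0.38 (-0.51 to 1.31), Aldh7a1, of lysine breakdown, 0.16 (-0.28 to 0.60) and Aldh16a1 0.01 (-0.83 to 0.85).

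In cluster 6 Aldh4a1 was at least 2-fold higher as well (1.10, 0.37 to 1.93), together with Aldh1l1, the cytosolic formyltetrahydrofolate dehydrogenase (1.35, 0.14 to 2.89, from 7 and 22 UMIs). Both had under 100 UMIs, and 5.93% of 9099 genes were at least 2-fold higher in this cluster. The remaining family members were placed by cell type. Aldh1a7 had 170 of its 437 UMIs in the sebaceous gland-like cluster 20, and Aldh1a1, whose product makes retinoic acid, had 122 of 503 in dermal fibroblast-like cells. All 27 Aldh3b3 UMIs were in cluster 1. Aldh3b1 had 12 of 28 UMIs in macrophage-like cells, and Aldh5a1 was highest in cluster 20. Aldh1l2 had 20 of 30 in dermal fibroblast-like cells, and Aldh1b1 had 21 UMIs in all.

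The gene battery of the aryl hydrocarbon receptor, to which Aldh3a1 belongs, was measured in part. Of 10 other genes on the list, which holds the receptor Ahr and its partner Arnt as well, 4 had enough UMIs in HF-SC-like cells. Of these 4, 0 were at least 2-fold higher and 1 was lower, where 3.73% and 2.21% of all 9597 genes were. The median log2 ratio of the 4 was -0.03, against 0.09 over all genes. The lower gene was Ahr itself, the receptor, at 73 UMIs in the control and 23 in the induced library, or 20.7 and 6.58 CPM, a log2 ratio of -1.64 (-2.40 to -0.96). In cluster 6 Ahr had 23 and 13 UMIs (-1.04, -2.16 to -0.02), and over all kept cells -0.10 (-0.16 to -0.04). In HF-SC-like cells Tiparp had 0.29 (0.19 to 0.40), Nqo1 0.01 (-0.68 to 0.70) and Arnt -0.08 (-0.44 to 0.28). In cluster 6 Nqo1 had 0.91 (0.14 to 1.77). Over all kept cells 7 of 9 measurable genes of the list, Arnt among them, were above 0, where the median over all 14484 genes was 0.10. Cyp1a1 (1.21, 0.41 to 2.10) and Cyp1b1 (0.59, 0.38 to 0.81) were among the 7, while Nqo1 was below 0 (-0.34, -0.54 to -0.15). The cytochrome genes Cyp1a1 and Cyp1b1 were among the 6 genes under 20 UMIs in HF-SC-like cells.

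Among 12 other carbonyl-detoxifying enzymes 8 had enough UMIs in HF-SC-like cells. Akr1b8, an aldo-keto reductase that reduces aldehydes to alcohols, was the 1 past 2-fold and was lower, with 39 and 11 UMIs and a log2 ratio of -1.77 (-2.93 to -0.82). It was lower in cluster 6 too, with 31 and 13 UMIs (-1.46, -2.55 to -0.52). The other 7 lay between 0.06 and 0.50 in HF-SC-like cells. The list median was 0.23, against 0.09 over all genes, of which 2.21% were at least 2-fold lower.

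Of 13 genes of the retinoid pathway, 9 had enough UMIs in HF-SC-like cells, with ratios from -0.75 to 0.99 and none past 2-fold. Of these 9, 7 were above 0 and 2 below, with a median of 0.22 against 0.09 over all genes. In cluster 6, 7 were measurable and 6 were above 0, with a median of 0.62 against 0.02 over all genes.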

How the data were processed

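The authors ran Cell Ranger against build mm10 (per the labels) to count UMIs for each gene and cell barcode and deposited raw counts, whole numbers without normalization, for 1 control and 1 induced 10x library of 4545 and 4264 barcodes. The matrix headers name software version 3.0.1. The study's filter was used: over 200 and under 5000 detected genes and under 10% mitochondrial UMIs, which kept 86.6% and 85.1% of barcodes. Integration used Seurat 5.3.0 (R 4.3.3) with 2 libraries (2000 variable genes without any listed gene, 30 dimensions, Louvain resolution 0.8).

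A cluster took the class with the highest share of raised markers (2-fold, 20 UMIs, at least 3 and over 50% of the list), unless another class had more among its top 10 genes, or as many with over 50% of its own list raised. This rule was set after seeing the clusters. UMIs were summed per population and library, and ratios used a pseudocount of 0.5 and a minimum of 20 UMIs. Ratio intervals condition on the sum of 2 Poisson counts, and shares carry Clopper-Pearson intervals. The method was tested on simulated counts.

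Doublets were kept. Scrublet in scanpy 1.11.5 marked 4 and 5 barcodes, too few to be used, so an alternative left out the 165 and 145 highest scores. Named genes were the 6 members, other family members with 20 UMIs, genes of 3 pathway lists past 2-fold in HF-SC-like cells or cluster 6, the 5 genes most like Aldh3a1, and markers. Members and lists were chosen with earlier results of these data known. With 1 library per group no test was made. The value of 1 gene past 2-fold in cluster 6 is not reported here.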

Additional observations from a re-analysis of the deposited data

Results flagged for a closer look

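Aldh1a3 was lower in the induced library in cluster 1 (log2 ratio -2.26) and higher in inner bulge-like cells (cluster 5, 2.22), and both intervals excluded 0. The difference between the clusters was not tested, with 1 library per group. It rests on 13 control cells of cluster 1 and 3 induced cells of cluster 5 with 5 or more UMIs each.

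Aldh2 was higher in the sebaceous gland-like cluster 15 (0.31) and lower in cluster 2 (-0.23), again with intervals that excluded 0 and with the difference between the clusters untested. Both values are under 1.3-fold.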

How the results depend on the processing

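The log2 ratio of Aldh3a1 in HF-SC-like cells, 2.85, ran from 2.42 with a gate on Cd34 and Krt24 UMIs to 3.37 without the 5 highest cells of each library, over 11 alternatives, 2 of them chosen after seeing the data (no Krt79 or Defb6 UMI, and cluster 3 alone). In cluster 6 it ran from 0.62, under 5% mitochondrial UMIs, to 1.42. The number of clusters with a higher Aldh3a1 level in the induced library, 11, ran from 8 to 12. Under 5% mitochondrial UMIs Aldh3a1 in cluster 14 reversed to -0.15. The count of other aldehyde dehydrogenases past 2-fold in HF-SC-like cells, 0, became 2 under 5% mitochondrial UMIs, and the count in cluster 6, 2, became 0 under that limit and 0 with at least 100 UMIs, because both genes then had too few UMIs to be counted. The causes of the other shifts were not tested. Aldh9a1 in HF-SC-like cells, -0.42 with an interval that held 0, turned to 0.43 in cells without Krt79 and Defb6 UMIs. Of 327 values over 55 results, 312 stayed within the counting interval of the main value or within 1.5 times a count, 14 moved beyond it and 1, whose interval had excluded 0, reversed. Another 24 had fewer than 20 UMIs and gave no value. No paired analysis was possible because each group is 1 library. Depth limits the low genes most, since Aldh3a2, Aldh3b2 and Aldh9a1 had 24 to 42 UMIs per library in HF-SC-like cells.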
